A study of Homo sapiens with 13 samples.

Results

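The 10 genes described here make up the core of the NRF2 antioxidant pathway: the regulator NFE2L2, its repressor KEAP1 and 8 enzymes (GCLC, GCLM, GPX4, TXN, TXNRD1, SRXN1, NQO1 and HMOX1). They were listed by symbol, with no measured value in the rule, and all 10 were found among the 24875 symbols of the Silvestrol table and among the 13121 symbols of the INK128 table. All 10 passed the minimum level in the Silvestrol table (10588 genes tested), while 9 did so in the INK128 table (7102 genes tested), since GCLC had a mean total RNA level under 0.3 FPKM there. FPKM and RPKM are read numbers scaled for transcript length and library depth.

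MDA-MB-231 is a human triple-negative breast cancer line. Cells were left untreated, were given the vehicle DMSO for 1 h or 2 h, or were given 25 nM Silvestrol, an inhibitor of the RNA helicase eIF4A, for 1 h or 2 h, and ribosome footprints (RFs), the mRNA pieces held inside ribosomes, were sequenced in 7 libraries. The 2 h treatments were done at passage 3 and at passage 4, which are replicates of the same line, and mRNA was sequenced at 2 h in 1 library per treatment from passage 3. In a separate experiment at passage 3, cells were given DMSO or 200 nM INK128, an inhibitor of the kinase mTOR, for 2 h, with 1 RF and 1 total RNA library per treatment. The treatment field of the passage 3 Silvestrol RF library at 2 h names 1 h, and that of the DMSO mRNA library names untreated cells, against their titles. The deposited columns of the latter carry no treatment name, so every mRNA change and every translational efficiency (TE, RF level over mRNA level) of the Silvestrol experiment rests on a control mRNA library that may be from DMSO-treated or untreated cells. Counted reads per library ran from 2652423 (Silvestrol at 2 h, passage 4) to 50315607 (control mRNA) in the Silvestrol experiment. The INK128 files give FPKM only, so their depth is unknown. RF levels of the line's markers were between 4789 and 7031 RPKM for VIM and between 138 and 344 RPKM for CD44 over the 7 RF libraries. ESR1 was at 0 in all of them, PGR reached 0.042 RPKM and ERBB2 reached 4.05 RPKM.

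NRF2, the protein of NFE2L2, is a short-lived transcription factor. KEAP1 holds it and hands it to a CUL3 ubiquitin ligase for destruction, and oxidants or electrophiles that modify KEAP1 let NRF2 build up, enter the nucleus and, with a small MAF protein, bind antioxidant response elements. Its targets make glutathione, recycle thioredoxin and peroxiredoxins, and detoxify quinones and heme, and most of these enzymes outlive the regulator by far. NRF2 is known for being kept active in many tumors.

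The antioxidant response element, with the letters TGACNNNGC, was searched on both strands of the RefSeq promoters (GRCh38.p14, 250 bases before to 50 after each transcription start). The motif was found in at least 1 promoter of 3 of the 9 members with a promoter there, against 19.9% of the 7573 genes tested that had one. Counted by promoter instead of by gene, 13.3% of all 35116 held it. HMOX1 had no entry. KEAP1 held 2 matches, GCLM 1 and TXNRD1 3 in 2 promoters. The matches are shown because NRF2 binds elements of this kind, and capitals mark the motif. They are written 5′ to 3′ on the strand that holds it, with 10 bases on each side.
GCLM: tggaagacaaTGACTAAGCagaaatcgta
KEAP1: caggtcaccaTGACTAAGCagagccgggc
KEAP1, second match: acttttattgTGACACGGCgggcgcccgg
TXNRD1, upstream promoter: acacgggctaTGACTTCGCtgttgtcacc
TXNRD1, upstream promoter, second match: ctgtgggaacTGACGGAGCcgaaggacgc
TXNRD1, downstream promoter: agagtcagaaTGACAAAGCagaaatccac
These windows are at chr1:93909446-93909474 (plus strand) for GCLM, at chr19:10502784-10502812 (plus strand) and chr19:10502807-10502835 (minus strand) for KEAP1, and at chr12:104215670-104215698 (plus strand), chr12:104215761-104215789 (minus strand) and chr12:104286920-104286948 (minus strand) for TXNRD1. The first KEAP1 match and the GCLM match share the same 9 letters. A match is a stretch of letters and not a shown binding site, and the search says nothing of elements farther from the start.

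In control cells the median RF level of the members ran from 25.2 RPKM (GCLC) to 2396 RPKM (TXN), and the regulator stood among its targets at 138.2 RPKM. TXN, the small disulfide reductase thioredoxin, had the highest RF level, 1867 to 3132 RPKM over the 4 control RF libraries (untreated, DMSO at 1 h and DMSO at 2 h in both passages). In the DMSO libraries it was counted over the equivalent of 15.1% to 17.9% of its coding length, so this level rests on a short stretch. NQO1, a quinone reductase, followed with 685 to 933 RPKM, and TXNRD1, the reductase of thioredoxin, with 284 to 322 RPKM. The ranges of these 3 did not meet.

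GCLM, the modifier subunit of glutamate-cysteine ligase, ranged from 156 to 177 RPKM in the controls, above NFE2L2 with 134.6 to 150.9 RPKM. The range of GPX4 (123.9 to 161.5 RPKM) overlapped those of GCLM, NFE2L2 and SRXN1 (88.0 to 142.1 RPKM), and that of SRXN1 overlapped that of NFE2L2, so GPX4 could not be ordered against the other 3 nor SRXN1 against NFE2L2. GPX4 is the peroxidase that reduces lipid hydroperoxides, and SRXN1 is sulfiredoxin, which repairs overoxidized peroxiredoxins. KEAP1 (80.6 to 86.9 RPKM), HMOX1, heme oxygenase (44.1 to 49.2 RPKM), and GCLC, the catalytic subunit of glutamate-cysteine ligase (23.6 to 26.6 RPKM), were the lowest, and their ranges did not meet. GCLC, the rate-limiting enzyme of glutathione synthesis, was thus far below its partner subunit in footprints, with a GCLC over GCLM ratio of 0.149 to 0.164.

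**Figure D1:**
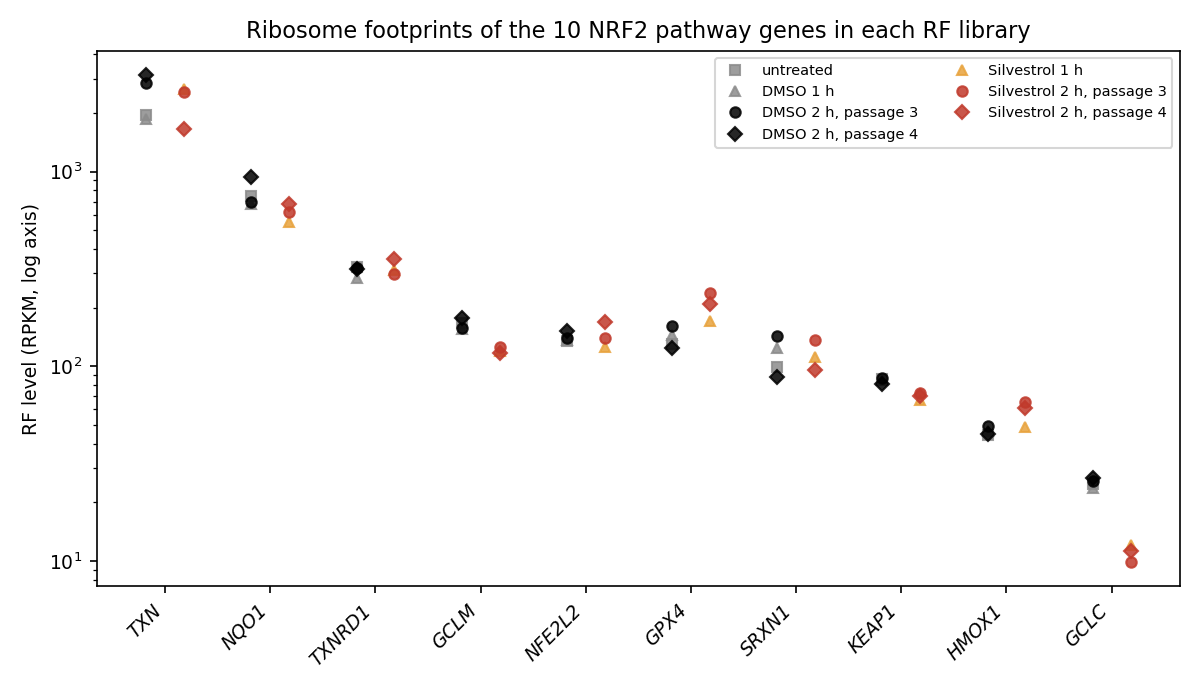
RF level in RPKM (log axis) of each of the 10 genes in the 7 RF libraries of the Silvestrol experiment; gray and black symbols are the 4 control libraries, orange and red symbols the 3 Silvestrol libraries, and each point is 1 library. GCLC lies at 9.86 to 12.0 RPKM in the Silvestrol libraries and at 23.6 to 26.6 RPKM in the controls, and GPX4 lies above its controls.

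The order of TE in DMSO-treated cells was different. GCLM had the highest TE of the members (7.94 in passage 3, higher than in 95.7% of genes tested) and NFE2L2 followed at passage 3 (4.68, percentile 85.5), although at passage 4 NQO1 (5.09) was just above NFE2L2 (5.05), while the median over the genes tested was 1.83. NQO1 (3.82), GCLC (3.79) and TXN (3.42, with RFs from a short counted stretch) were also above the median. GPX4 had the lowest TE, 0.312, at percentile 6.47, with the second highest mRNA level of the members, 517.5 RPKM. KEAP1 (1.13) and TXNRD1 (1.27) were below the median, and HMOX1 (1.83) and SRXN1 (1.93) were close to it, SRXN1 being 1.20 at passage 4. These TE values all rest on 1 mRNA library.

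With Silvestrol the members did not share a direction. Across the 3 Silvestrol RF libraries (1 h, and 2 h in both passages) 4 members lay below all 4 control libraries (GCLC, GCLM, KEAP1 and NQO1), 1 lay above them (GPX4) and 5 overlapped them, NFE2L2 included. Among all genes tested, 32.7% lay below and 10.2% above in the same way. In the edgeR quasi-likelihood test of RF counts at 2 h (2 DMSO against 2 Silvestrol libraries, Benjamini-Hochberg over 10588 genes, threshold 0.05), 1 of the 10 members was called lower (GCLC) and 0 higher, against 7.52% and 2.1% of the genes tested. With the passage as a block, 4 members were called lower (GCLC, GCLM, TXN and NQO1) and 2 higher (GPX4 and HMOX1), against 28.0% and 24.6% of the genes tested. DESeq2 called GCLC lower (adjusted p = 0.000289) and GPX4 higher (adjusted p = 0.0205), against 9.48% and 5.53%. Without either Silvestrol library edgeR called 0 genes of all those tested, with 1606 and 1922 genes at an unadjusted p under 0.05.

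edgeR changes are given after its own library scaling, under which the median change over the genes tested was -0.02 (log2), whereas the RPKM values as deposited put that median at -0.17 in passage 3 at 2 h and at -0.18 at 1 h. All levels are relative to the total of their library, and in bulk samples fewer cells and less RNA per cell cannot be told apart. Errors after edgeR changes are standard errors (SE, n = 2 RF libraries per treatment). In the RF test with the block, few libraries are left to estimate a gene's own spread. Its p-values therefore rest mostly on variation shared over all genes, and their small size is no measure of a gene's own replicates. That test called 28.0% of genes lower and 24.6% higher. In the TE test mRNA has 1 library per treatment, so its spread comes from the RF libraries alone, and its errors and p-values, with or without the block, do not cover variation in mRNA. Where 1 RF library is left out, its treatment keeps 1 library, which is assumed to vary like those of the other treatment. These fits have no block, so passage is then unbalanced between the treatments, and a shift can mix passage with drug.

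NFE2L2 (chr2:178083395-178257484, minus strand, GRCh37) kept its footprints while its mRNA was higher. Its RF level was 140.0 RPKM in DMSO and 140.2 RPKM in Silvestrol at passage 3, and 150.9 RPKM and 169.2 RPKM at passage 4. At 1 h it was 136.5 RPKM in DMSO and 125.3 RPKM in Silvestrol, and untreated cells had 134.6 RPKM. The Silvestrol values thus fell on both sides of the controls. The RF change at 2 h was 0.21 ± 0.13 (log2) and did not pass the test (edgeR quasi-likelihood test, adjusted p = 0.337), nor did it with the passage as a block (adjusted p = 0.0543). Without the Silvestrol library of passage 4 the change was 0.11.

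NFE2L2 mRNA was 29.9 RPKM in the control library and 67.4 RPKM in the Silvestrol library (5368 and 6177 reads), a ratio of 2.25. This was the largest mRNA ratio of the 10 members and was higher than in 97.7% of genes tested, and it has no replicate check. Its TE was 4.68 in DMSO and 2.08 in Silvestrol at passage 3, and 5.05 and 2.51 at passage 4 over the same mRNA libraries. The TE change, taken from the assay-by-treatment term of a joint edgeR model, was -0.84 ± 0.25 (log2), and did not pass without the block (edgeR, adjusted p = 0.135). With the passage as a block it was also -0.84 and passed the threshold (adjusted p = 0.00199), but the part that differed was the mRNA, which this test has no replicate for. The regulator's mRNA and footprints therefore did not move together in these libraries. At passage 3 the difference in TE came with the mRNA value, since the RF ratio was 1.00. At passage 4 the RF ratio was 1.12, upward like the mRNA but smaller.

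KEAP1 (chr19:10596801-10614234, minus strand, GRCh37), the adaptor that presents NRF2 for ubiquitination, had lower footprints in each Silvestrol library by a small margin. Its RF level was 86.9 RPKM in DMSO and 72.4 RPKM in Silvestrol at passage 3, and 80.6 RPKM and 70.2 RPKM at passage 4. At 1 h the values were 84.8 RPKM in DMSO and 66.9 RPKM in Silvestrol. After scaling by edgeR the change at 2 h was -0.11 ± 0.14 (log2, adjusted p = 0.647) and did not pass the test. Single libraries moved it in fits with no block, where passage is then unbalanced. It was -0.01 without the DMSO library and -0.21 without the Silvestrol library of passage 3. It was -0.20 without the DMSO library and -0.04 without the Silvestrol library of passage 4.

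KEAP1 mRNA was 77.0 RPKM in the control library and 54.3 RPKM in the Silvestrol library, a ratio of 0.705. Its TE was 1.13 in DMSO and 1.33 in Silvestrol at passage 3. The TE change of 0.52 ± 0.28 (log2) passed the test only with the block (edgeR, adjusted p = 0.309 without and 0.0259 with it). The ratio of NFE2L2 to KEAP1 in RF RPKM was 1.56 to 1.87 in the 4 controls and 1.87, 1.94 and 2.41 in the Silvestrol libraries, so the ranges met at their ends. Within matched pairs the ratio was higher with Silvestrol each time, 1.61 and 1.87 at 1 h, 1.61 and 1.94 at passage 3, and 1.87 and 2.41 at passage 4. In mRNA the ratio was 0.389 in the control and 1.24 with Silvestrol.

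**Figure D2:**
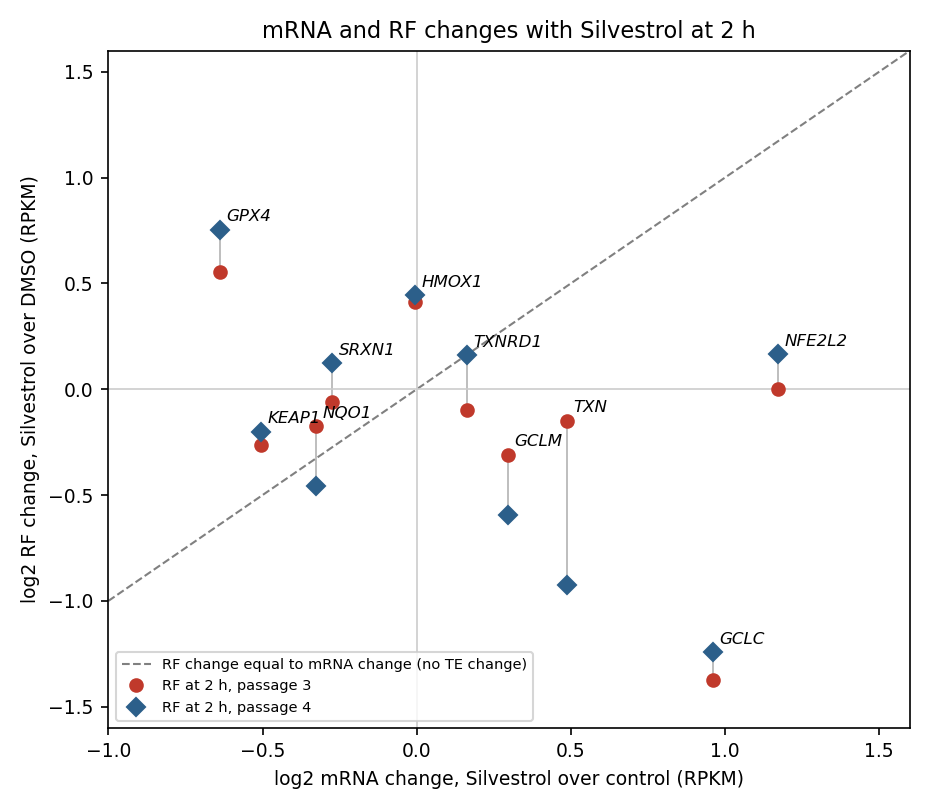
log2 change of mRNA (x axis, 1 library per treatment) against log2 change of RFs at 2 h (y axis, RPKM, Silvestrol over DMSO) for each gene, with a circle for passage 3 and a diamond for passage 4 joined by a line; on the dashed diagonal TE did not change. NFE2L2 lies at an mRNA change of 1.17 with RF changes of 0.00 and 0.16, GCLC lies far below the diagonal and GPX4 above it.

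The subunits of the enzyme that starts glutathione synthesis gave different values. GCLC (chr6:53362139-53481768, minus strand, GRCh37) had an RF level of 25.6 RPKM in DMSO and 9.86 RPKM in Silvestrol at passage 3, and 26.6 RPKM and 11.2 RPKM at passage 4. At 1 h it was 23.6 RPKM in DMSO and 12.0 RPKM in Silvestrol, and untreated cells had 24.9 RPKM. All 3 Silvestrol values were less than the lowest control, and the lowest number of reads behind them was 75 (passage 4). At 2 h GCLC footprints fell by 1.19 ± 0.17 on the log2 scale (edgeR, adjusted p = 0.0248, with the block 3.45e-14). Leaving out the Silvestrol library of passage 3 gave a change of -1.16 (adjusted p = 0.206) and leaving out that of passage 4 gave -1.23 (adjusted p = 0.152), so the size held. No gene of those tested was called in either of these fits, so the lost call says nothing of GCLC itself. At 1 h, GCLC was the 1 member past 1.5-fold below the median of all genes, as were 14.1% of genes.

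GCLC mRNA went the other way, from 6.75 RPKM in the control library to 13.2 RPKM in the Silvestrol library (a ratio of 1.95). NFE2L2 and GCLC were the 2 members whose mRNA was over 1.5-fold above the median gene, which 16.3% of genes were. GCLC TE was 3.79 in DMSO and 0.749 in Silvestrol at passage 3, and 3.93 and 0.853 at passage 4. Its ∆TE z-score, the log2 change in TE standardized over the genes tested, was -2.04 at passage 3 and -1.98 at passage 4, lower than all but 2.42% and 2.81% of genes. GCLC was the 1 member below -1.5, where 6.46% of genes were at passage 3 and 6.66% at passage 4. In the interaction test the TE change was -2.03 ± 0.30 (log2, edgeR, adjusted p = 0.0739), and with the block it was -2.03 (adjusted p = 8.98e-05, from the spread of RFs alone). Without the block the TE test called 0 members and 2 of all genes (0.0189% lower, 0 higher), with 2571 genes at an unadjusted p under 0.05, and DESeq2 called 1 member lower (GCLC, adjusted p = 0.000661) and 1 higher (GPX4, adjusted p = 0.0121), against 4.86% and 3.53% of genes. With the block 2 members were called lower (GCLC and NFE2L2) and 4 higher (GPX4, HMOX1, SRXN1 and KEAP1), against 21.8% and 21.9% of genes.

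GCLM (chr1:94350755-94375012, minus strand, GRCh37), which lowers the ligase's need for glutamate and its inhibition by glutathione, moved less. Its RF level was 156.3 RPKM in DMSO and 126.2 RPKM in Silvestrol at passage 3, 177.0 RPKM and 117.1 RPKM at passage 4, and 156.0 RPKM and 119.5 RPKM at 1 h. The Silvestrol libraries again lay below every control. The change at 2 h was -0.32 ± 0.14 (log2, edgeR, adjusted p = 0.201), and with the block footprints fell by 0.31 (adjusted p = 0.00971). GCLM mRNA was 19.7 RPKM in the control library and 24.2 RPKM with Silvestrol, and TE was 7.94 and 5.22 at passage 3. The GCLC over GCLM ratio in RF RPKM was 0.101 at 1 h, 0.0781 at 2 h in passage 3 and 0.0960 at 2 h in passage 4 with Silvestrol, all below the control range of 0.149 to 0.164. In mRNA the ratio was 0.343 in the control and 0.545 with Silvestrol.

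**Figure D3:**
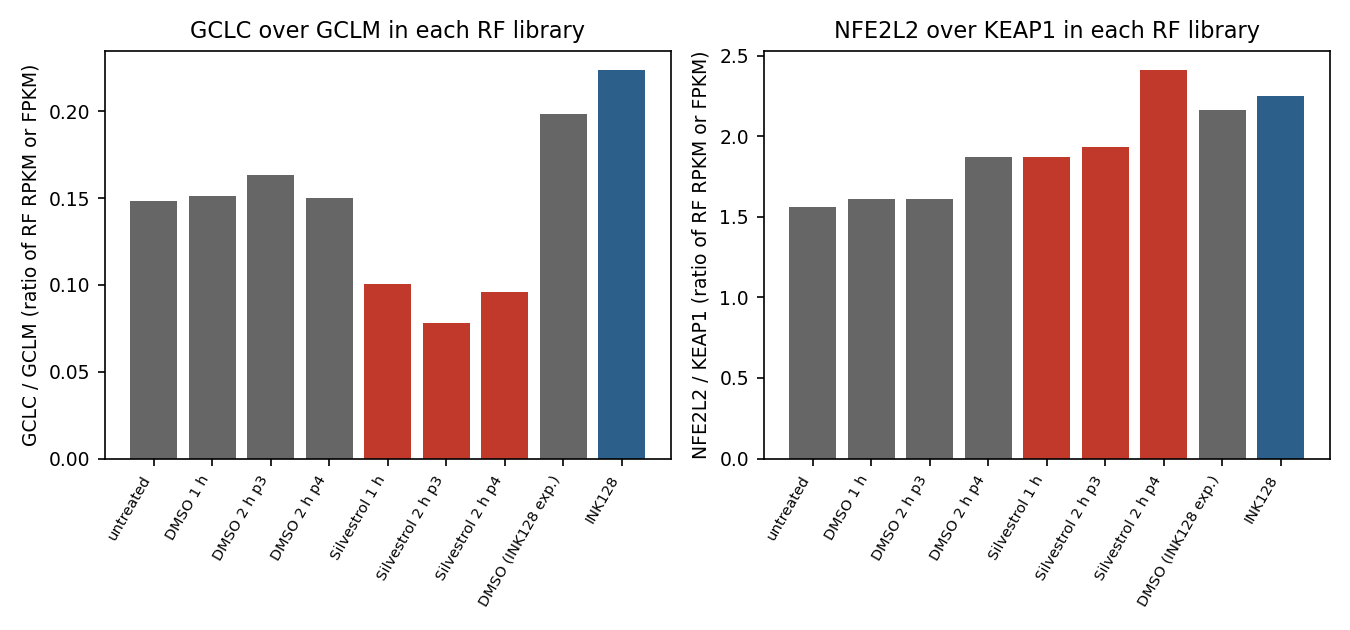
Ratio of RF levels of GCLC over GCLM (left) and of NFE2L2 over KEAP1 (right) in each RF library, with controls in gray, Silvestrol in red and INK128 in blue; bars start at 0 and each is 1 library, p3 and p4 are the passages, and the INK128 experiment is in FPKM. The GCLC over GCLM ratio is 0.0781 to 0.101 with Silvestrol and 0.149 to 0.164 in the controls, and it is 0.224 with INK128 against 0.199 in its DMSO control.

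GPX4 (chr19:1103981-1106790, plus strand, GRCh37), a selenoprotein whose catalytic residue is read from a UGA codon, was the member with the highest TE change. Its RF level was 161.5 RPKM in DMSO and 237.0 RPKM in Silvestrol at passage 3, 123.9 RPKM and 208.9 RPKM at passage 4, and 144.9 RPKM and 171.2 RPKM at 1 h. Every Silvestrol value was above every control. The RF change at 2 h was 0.76 ± 0.21 (log2), with an adjusted p of 0.07735 in edgeR, and footprints rose by 0.77 with the block (adjusted p = 7.27e-12). Without the DMSO library of passage 3 the change was 1.02 (adjusted p = 0.0365) and without that of passage 4 it was 0.56 (adjusted p = 0.111).

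GPX4 mRNA was 517.5 RPKM in the control library and 332.9 RPKM with Silvestrol, the lowest mRNA ratio of the members (0.643) and the 1 member more than 1.5-fold below the median gene, as were 13.7% of genes. Its TE was 0.312 in DMSO and 0.712 in Silvestrol at passage 3, and 0.239 and 0.628 at passage 4. The z-score was 1.52 at passage 3 and 1.75 at passage 4, and 4.67% of genes were above 1.5 in each passage. At passage 3 it was 1.36 with no minimum level and 1.4995 with a minimum of 5 RPKM, so that call did not hold. The TE change was 1.52 ± 0.38 (log2) without the block (edgeR, adjusted p = 0.110), and 1.52 with the block (adjusted p = 9.58e-05, from the spread of RFs alone). Even so GPX4 kept the lowest TE of the members with Silvestrol in both passages.

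**Figure D4:**
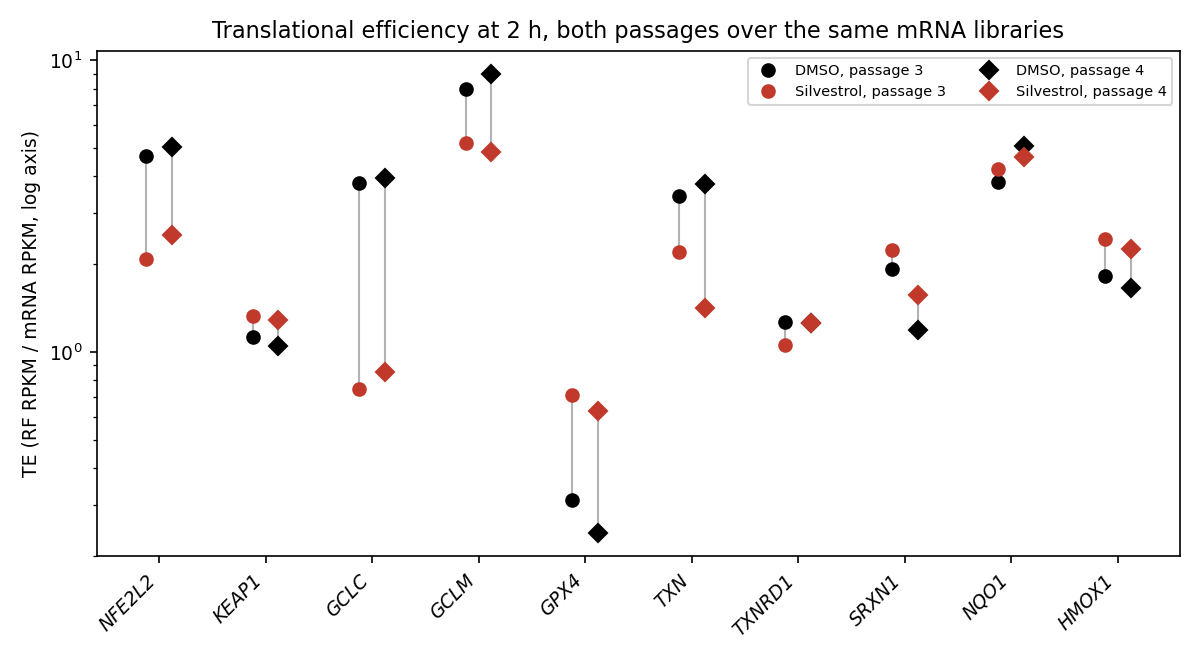
TE (RF RPKM over mRNA RPKM, log axis) of each gene at 2 h, in black for DMSO and red for Silvestrol, with circles for passage 3 and diamonds for passage 4 joined by lines; both passages are divided by the same 2 mRNA libraries. GCLC goes from 3.79 to 0.749 and GPX4 goes from 0.312 to 0.712 at passage 3.

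The thioredoxin branch showed no call without the block. TXN (chr9:113006090-113018787, minus strand, GRCh37) had an RF level of 2849 RPKM in DMSO and 2571 RPKM in Silvestrol at passage 3, 3132 RPKM and 1648 RPKM at passage 4, and 1867 RPKM and 2665 RPKM at 1 h. Untreated cells had 1943 RPKM, so the controls alone spread 1.68-fold and the Silvestrol values fell inside and below them. At 1 h TXN was the 1 member past 1.5-fold above the median gene (a log2 change of 0.51 as deposited, and 0.70 relative to the median gene), as were 5.12% of genes, while at 2 h the RF change was -0.27 ± 0.15 (log2, edgeR, adjusted p = 0.293, with the block 0.0311). In fits with no block the change was -0.17 without the DMSO library and -0.18 without the Silvestrol library of passage 4. It was -0.36 without the DMSO library and -0.40 without the Silvestrol library of passage 3. The reads counted for TXN covered the equivalent of 15.1% to 22.8% of its coding length in the 6 RF libraries at 1 h and 2 h, the highest share being in Silvestrol at passage 4. Reads that align to several places were not counted, and with an offset for counted length the change was -0.36 ± 0.26 (log2, edgeR, adjusted p = 0.398). With the offset and the block together TXN footprints fell by 0.38 (adjusted p = 0.00157), and its TE change was -0.75 (adjusted p = 0.0461). TXN values thus depend on the counted length, on the block and on single libraries of both passages. The 2 h change minus the 1 h change was called for TXN alone among the members, and only with the block (-0.92 on the log2 scale, 1.08% of genes lower and 0.916% higher).

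TXNRD1 (chr12:104609557-104744085, plus strand, GRCh37), also a selenoprotein, was among the steadiest members. Its RF level was 318.5 RPKM in DMSO and 297.8 RPKM in Silvestrol at passage 3, 316.0 RPKM and 353.7 RPKM at passage 4, and 284.0 RPKM and 311.8 RPKM at 1 h. The change at 2 h was 0.16 ± 0.12 (log2, edgeR, adjusted p = 0.425, with the block 0.117), and without the Silvestrol library of passage 4 it was 0.08. Its mRNA was 250.8 RPKM in the control and 280.7 RPKM with Silvestrol, and its TE change was 0.11 ± 0.23 (log2, adjusted p = 0.802). SRXN1 (chr20:627259-633844, minus strand, GRCh37) went from 142.1 to 136.5 RPKM at passage 3 and from 88.0 to 95.9 RPKM at passage 4. Its change of 0.21 ± 0.31 (log2, edgeR, adjusted p = 0.695) had the widest error of the members without the block. With the passage as a block it was 0.20 ± 0.14 (edgeR, adjusted p = 0.229). In fits with no block its sign turned without the DMSO library of passage 4 (-0.09) or the Silvestrol library of passage 3 (-0.11). Passage was not balanced between treatments in those fits.

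NQO1 and HMOX1, targets often read as markers of NRF2 activity, are described together. NQO1 (chr16:69740899-69760571, minus strand, GRCh37) went from 699.8 to 619.9 RPKM in RFs at passage 3, from 932.6 to 678.3 RPKM at passage 4 and from 685.0 to 548.2 RPKM at 1 h. Its change at 2 h was -0.21 ± 0.15 (log2, edgeR, adjusted p = 0.410, with the block 0.0485, and 0.0569 with the block and the offset for counted length), and its mRNA ratio was 0.797. In fits with no block the change was -0.02 without the DMSO library of passage 4 and -0.37 without that of passage 3. Passage was not balanced between treatments in those fits, and with the block and all libraries the change was -0.19. HMOX1 (chr22:35776354-35790207, plus strand, GRCh37) went from 49.2 to 65.5 RPKM at passage 3, from 44.6 to 60.7 RPKM at passage 4 and from 46.3 to 48.6 RPKM at 1 h. Only its 2 h values lay above all controls. The change was 0.55 ± 0.18 (log2, adjusted p = 0.115), and with the block HMOX1 footprints rose by 0.55 (adjusted p = 0.000140). Its mRNA was 26.9 RPKM in the control and 26.8 RPKM with Silvestrol, and neither NQO1 nor HMOX1 mRNA was past 1.5-fold from the median gene.

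Set against the median of the 8 enzymes, NFE2L2 differed in mRNA and TE but hardly in footprints. Its log2 mRNA change was 1.09 above the enzymes' median and above each of the 8. In TE it was 1.12 below that median at passage 3 and 0.94 below at passage 4, with 1 and 2 enzymes lower. In RFs the difference was -0.08 at 1 h, 0.12 at 2 h in passage 3 and 0.33 at 2 h in passage 4, within the enzymes' span each time. KEAP1 was 0.58 below the enzymes' median in mRNA, with 1 enzyme lower, and 0.29 and 0.37 above it in TE. These differences are descriptions with no test.

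The genes whose 6 changes (RFs at 1 h and in each passage at 2 h, mRNA at 2 h, and RF and total RNA with INK128, all log2) were closest to those of NFE2L2 among 5802 genes were KIAA0020 (Euclidean distance 0.30), HYLS1 (0.31), ZNF655 (0.35), SPEN (0.36) and EXOSC8 (0.40). All 5 had an mRNA change between 0.89 and 1.15 with RF changes between -0.20 and 0.19 with Silvestrol. Of the 8 other members compared, TXNRD1 was nearest (distance 1.07, rank 699). GCLC was not among them, since it was under the minimum level in the INK128 table.

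The members' annotated 5′ UTRs (GENCODE 44 on GRCh37, 9135 of the 10588 genes tested had one) differed widely. GCLC had the longest, 456 nt, longer than in 92.0% of genes, with a predicted folding energy of -259.3 kcal/mol, which only 4.2% of genes reached or passed, and 1 upstream ATG, which 38.7% of genes had at least once. GCLM followed with 267 nt and -129.8 kcal/mol, and then KEAP1 with 163 nt and NFE2L2 with 151 nt and -63.3 kcal/mol. The median gene had 134 nt and -52.4 kcal/mol. NQO1 had 121 nt, HMOX1 78 nt, TXN 72 nt, GPX4 50 nt, TXNRD1 24 nt and SRXN1 15 nt. Thus GCLC was lowest in ∆TE and first in length, while KEAP1, with 163 nt, had a TE change above 0. The transcripts used in MDA-MB-231 were not determined here, and any part of these features in the changes was not tested.

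Other genes of the pathway were examined by list. Of 19 tested genes among 20 NRF2 partners, repressors and degradation factors, 5 were called lower and 0 higher in RFs without the block (6 and 7 with it), where 7.52% and 2.1% of all genes were called (28.0% and 24.6% with it), with a median change of -0.14 (log2) beside -0.02 over all genes. The 5 were GSK3B, EP300, CREBBP, NFE2L1 and CUL3, of which CREBBP, NFE2L1 and CUL3 are named after their values were seen. GSK3B, a kinase that marks NRF2 for degradation outside the KEAP1 route, went from 33.5 to 3.72 RPKM at passage 3 and from 31.2 to 3.34 RPKM at passage 4 (fell by 2.96 ± 0.21 on the log2 scale, edgeR, adjusted p = 0.0150). EP300, an acetyltransferase and NRF2 coactivator, went from 13.6 to 2.07 RPKM and from 13.4 to 2.54 RPKM (fell by 2.44 ± 0.17, adjusted p = 0.0150). Both were thus reduced in each passage by more than any of the 10 members.

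CUL3, the scaffold of the ligase that KEAP1 serves, went from 68.0 to 22.5 RPKM at passage 3 and from 66.1 to 18.7 RPKM at passage 4 (fell by 1.56 ± 0.17 on the log2 scale, edgeR, adjusted p = 0.0179). RBX1, the RING subunit of that ligase, went from 469 to 684 RPKM and from 512 to 745 RPKM (0.68 ± 0.15, adjusted p = 0.0528, and it rose with the block, adjusted p = 3.02e-10). Within this ligase, therefore, CUL3 had fewer footprints and RBX1 more in both passages. NFE2L3, a relative of NFE2L2 at 1.52 and 3.94 RPKM in DMSO, had a change of 0.72 ± 0.73 (adjusted p = 0.548, with the block 0.0272).

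Among 25 tested genes of glutathione synthesis, supply and use, 0 were called lower and 1 higher, against 7.52% and 2.1% of all genes, and 2 lower and 12 higher with the block, against 28.0% and 24.6%, with a median of 0.34 (log2). GSTP1, a glutathione transferase, went from 1138 to 2123 RPKM at passage 3 and from 1019 to 2026 RPKM at passage 4 (rose by 1.06 ± 0.12, edgeR, adjusted p = 0.0179). SLC7A11, the cystine importer that feeds the ligase, went from 27.1 to 15.0 RPKM and from 41.1 to 18.9 RPKM (-0.88 ± 0.24, adjusted p = 0.0798, and it fell with the block, 6.10e-08), with mRNA at 8.97 RPKM in the control and 22.6 RPKM with Silvestrol. Like GCLC, SLC7A11 thus had fewer footprints and more mRNA, and its z-score was -1.88. GSS, which adds glycine in the next step, changed by -0.26 ± 0.16 (adjusted p = 0.332, with the block 0.0168). GPX7 had a change of 1.78 ± 0.53 (adjusted p = 0.0920, with the block 0.00258) on levels of 1.28 and 1.34 RPKM in DMSO.

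In the thioredoxin, peroxiredoxin, superoxide dismutase and catalase list, 0 of 19 genes were called without the block (7.52% of all genes lower, 2.1% higher). With it 3 were lower and 12 higher, against 28.0% and 24.6% of all genes (median 0.25, log2). Among the genes called with the block, TXNRD3 (-0.60) and TXNL1 (-0.47) had the lowest changes, and PRDX4 (0.56) and TXNRD2 (0.56) the highest. In the list of other NRF2 targets, 2 of 22 genes were called lower and 0 higher, against 7.52% and 2.1% of all genes (median 0.33). With the block 6 were lower and 13 higher, against 28.0% and 24.6%, so the lower counts were near the shares over all genes in both fits. UGDH, which makes UDP-glucuronate, fell by 1.15 ± 0.14 on the log2 scale (edgeR, adjusted p = 0.0186), and BLVRA, biliverdin reductase, named after its value was seen, fell by 0.88 ± 0.14 (adjusted p = 0.0295). FTL, the ferritin light chain, went from 9.82 to 31.01 RPKM and from 4.35 to 27.5 RPKM (2.34 ± 0.73, edgeR, adjusted p = 0.102, with the block 0.000345). These RF levels are low beside its 115.4 RPKM of mRNA in the control library, and the error is wide. IDH1 (-0.93) and OSGIN1 (0.97) passed only with the block.

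Since GPX4 and TXNRD1 are selenoproteins, the others were read as a list. Of 15 tested, 0 were called without the block (7.52% of all genes lower, 2.1% higher), and 1 was lower and 7 higher with it (28.0% and 24.6%), with a median of 0.45 (log2) beside -0.02 over all genes. SELO (0.88) and SEPN1 (0.71) passed the block fit and had z-scores of 1.63 and 1.64. In this list 5 of 15 had a z-score above 1.5, where 4.67% of genes did (these and GPX1, GPX3 and SEPX1, named after their values were seen), and GPX1 among them had only 0.978 and 0.592 RPKM of RFs in DMSO and did not pass even with the block (adjusted p = 0.578). In the same list 7 had mRNA more than 1.5-fold below the median gene, where 13.7% of genes did. These lists were assembled with earlier results of these data known, and their counts are descriptions.

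With INK128 the members stayed close to the typical gene. HMOX1 was the 1 member past 1.5-fold in RFs, from 10.7 FPKM in DMSO to 17.5 FPKM, as 3.83% of genes were in that direction, and 0 members were past it downward, as 3.62% of genes were. NFE2L2 was 67.9 FPKM in DMSO and 73.1 FPKM with INK128, and KEAP1 was 31.4 and 32.5 FPKM. The other members had RF changes between -0.18 (SRXN1) and 0.41 (GCLC, log2), with a median of 0.01 over all genes.

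In total RNA the median gene had a change of -1.17 (log2) with INK128, and the members lay between -1.42 (SRXN1) and -0.63 (HMOX1). None of the 9 was past 1.5-fold from that median, as 2.42% of genes were downward and 7.97% upward. NFE2L2 total RNA was 2.17 FPKM in DMSO and 0.908 FPKM with INK128 (-1.26), close to that median. FPKM is relative to its library, so this shift shared by most genes cannot be read as a loss of these RNAs. The median change in TE was 1.185 (log2), and the source of both shifts was not tested. The ∆TE z-scores ran from -0.64 (TXN) to 0.53 (KEAP1) over the 9 members past the minimum level, and 0 members were past -1.5 or 1.5, against 5.58% and 1.75% of genes. NFE2L2 had a z-score of 0.48. Each value rests on 1 library per treatment, and the experiments used different doses, RNA libraries and units, so INK128 and Silvestrol values are set side by side without a test.

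**Figure D5:**
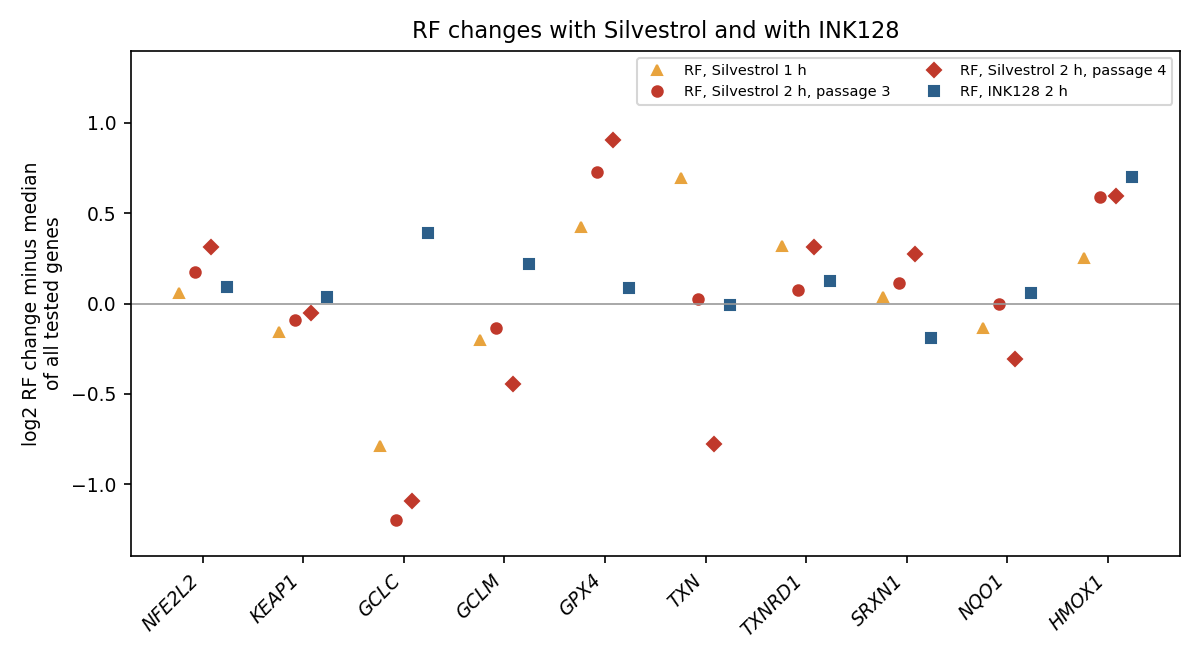
log2 RF change minus the median over all tested genes (y axis) for each gene, with triangles for Silvestrol at 1 h, red circles and diamonds for Silvestrol at 2 h in passages 3 and 4, and blue squares for INK128; each point compares 1 treated with 1 DMSO library, and GCLC was under the minimum level in the INK128 table. GCLC is lowest with Silvestrol in all 3 comparisons and not with INK128, and HMOX1 is highest with INK128.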

How the data were processed

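One deposited table per drug was used. To make the Silvestrol table, the authors ran Bowtie on hg19 with UCSC KnownGene canonical transcripts, allowing 2 mismatches and 16 alignments per read. They deposited, for each library and transcript, the count of uniquely mapped reads and an RPKM that leaves out positions shared with other places or transcripts. The submitters' processing notes name CASAVA 1.8.1, Bowtie2 and hg19. The INK128 table holds FPKM values per gene as the authors deposited them, made with a program not given in the sources used here. Deposited columns with the authors' mean RPKM, TE ratio, log2 change in TE and z-score, a score standardized by the authors, hold their own comparisons and were not used.

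Repeated lines were dropped (25758 of 38897 are distinct), and of 431 symbols with several entries the one with the highest mean RF RPKM was kept. Genes tested had a level above 0 in the passage 3 libraries at 2 h, averages of at least 1 RPKM in RFs and 0.3 RPKM in mRNA (the same in FPKM for INK128). TE was RF RPKM over mRNA RPKM, with no pseudocount. The RF test used edgeR 4.0.16 under R 4.3.3 (TMM, glmQLFit, glmQLFTest), TE as the interaction of assay and treatment over 6 libraries, and DESeq2 1.42.0 was an alternative. Comparisons with 1 library per treatment have no test, and genes past 1.5-fold from the median gene were counted. Both tests were tested on simulated data, where the TE test recovered far fewer of the changed genes than the RF test. The simulated counts had the same spread in all libraries and no passage effect, unlike the data, so recovery in the data may differ.

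Per the labels, replicates are passages 3 and 4, and each passage was given both treatments. What set passage 4 apart from passage 3 in DMSO correlated with the same in Silvestrol (r = 0.712 across 10588 genes), so the passage pairs the samples, and blocked values stand beside results whose call they change.

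Named genes are the 10 members, from each list at most 2 lowest and 2 highest RF changes among genes called with or without the block that moved the same way in both passages, and the 5 genes nearest to NFE2L2. The members and lists were chosen with earlier results of these data known. 5′ UTRs came from GENCODE 44 transcripts, MANE Select for 99.5% of genes and all members (GRCh37, which is hg19), folded with RNAfold 2.7.2. Gene coordinates are on GRCh37 and promoter coordinates on GRCh38.p14, from RefSeq. Alternatives covered scaling, the minimum level, pseudocounts, counted length, the block and leaving out each replicate. Scripts ran under Python 3.11.15 with pandas 2.3.3 and numpy 2.4.6.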

Additional observations from a re-analysis of the deposited data

Results flagged for a closer look

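TXN, thioredoxin, was the 1 member called in a comparison of the RF change with Silvestrol at 2 h with that at 1 h. At 1 h its RF level was 1867 RPKM in DMSO and 2665 RPKM in Silvestrol, and at 2 h it was 2849 RPKM and 2571 RPKM at passage 3 and 3132 RPKM and 1648 RPKM at passage 4. The log2 change at 2 h minus that at 1 h was -0.92 with the passage as a block (edgeR quasi-likelihood test over 6 RF libraries, adjusted p = 6.17e-05), where 1.08% of genes were called in this direction and 0.916% in the other. Without the block it was -0.93 (adjusted p = 0.9998) and 0 genes were called, with 94 genes at an unadjusted p under 0.05. The 1 h time has 1 library per treatment, so the 2 h libraries alone supply the error and variation at 1 h is not covered. The DMSO value there (1867 RPKM) was the lowest of the controls, and the counted length of TXN was 15.1% to 22.8% of its coding length. Their part in the difference was not tested. This test was added after the data were seen. The treatment field of the passage 3 Silvestrol RF library at 2 h names 1 h, against its title, so the time of that library is not certain here.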

How the results depend on the processing

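Counts of called genes depended on the passage block and on single libraries. For RFs the 796 lower and 222 higher genes became 2967 and 2607 with the passage as a replicate block (4 members lower, 2 higher) and 3026 and 2406 with the block and an offset for counted length (3 and 2, without NQO1), an alternative added after the data were seen. DESeq2 called 585 genes and 1 member higher. Leaving out each replicate gave 0 to 917 genes lower, 0 to 249 higher, and 0 to 1 member in each direction. The count was 0 without either Silvestrol library.

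For TE the 2 lower and 0 higher genes became 2308 and 2316 with the replicate block (2 members lower, 4 higher), 2336 and 2225 with block and offset (3, TXN being added, and 4), 515 and 374 with DESeq2 (1 and 1), 174 and 21 with no minimum level (1 member lower), and 0 lower with a minimum of 5 RPKM or the offset alone. Leaving out each replicate gave 0 to 793 genes lower, 0 to 497 higher, and 0 to 1 member in each direction. GPX4 was no longer above a z-score of 1.5 with no minimum or a minimum of 5 RPKM (0 members), and HMOX1 was not counted with INK128 under a minimum of 5 FPKM (0 members).

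Against the mean of the enzymes, NFE2L2 was -0.94 and -0.71 in TE at passages 3 and 4, and KEAP1 0.47 and 0.60. With a pseudocount of 0.5 the INK128 total RNA differences were -0.081 and -0.16. With each replicate left out and no block, the SRXN1 RF change ranged from -0.11 to 0.62. It turned to -0.09 without the DMSO library of passage 4 and to -0.11 without the Silvestrol library of passage 3. With the block and all replicates it was 0.20. Over the members' RF and TE tests under every alternative, 186 values kept their direction and side of the threshold, 30 newly passed it, 2 no longer did (GCLC in RFs without either Silvestrol library, where 0 genes were called) and the 2 of SRXN1 turned. The causes were not tested. Depth limits GCLC most, with 75 reads in the shallowest library, and INK128 values have unknown depth.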
